A study of Mus musculus with 4 samples.

Results

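S100 proteins are small calcium-binding proteins that are found in vertebrates. Most form dimers, open on binding calcium and then dock onto other proteins, among them annexins, cytoskeletal proteins and enzymes. In the small intestine the family is known mainly for calbindin-D9k (S100g), which carries absorbed calcium through the enterocyte, and for calprotectin (S100a8 with S100a9), which neutrophils bring into inflamed gut. The 10 genes described here, S100a1, S100a4, S100a6, S100a8, S100a10, S100a11, S100a13, S100a16, S100b and S100g, were taken by name from a table of 29011 genes. The table held 7 further rows whose names begin with S100.

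The 4 libraries came from mouse pups at postnatal day 8, from the whole small intestine, with 2 per group. The control mice carried floxed Lats1 and Lats2 without Cre by the design text, although their genotype label reads VilCre-; Lats1/2-/-. The Lats1/2 KO mice were labelled VilCre+; Lats1/2-/-, and Villin-Cre acts in the intestinal epithelium, so the other cells of the tissue keep their alleles. LATS1 and LATS2 are the Hippo pathway kinases that restrain the co-activators YAP and TAZ, and the design asks how the tissue's gene expression differs when they are deleted. The labels do not say whether each library came from its own animal, so p-values measure only the spread between these samples.

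Levels are normalized counts, which are gene read counts that the authors divided by 1 factor per library. Depth was 25135964 to 32361940 recovered reads per library. Of the targeted genes, Lats1 was 2316 and 2560.2 normalized counts in the controls and 751 and 661 in the Lats1/2 KO libraries, a 3.45-fold fall. Lats2 was 273 and 287 in the controls and 295 and 254 in the knockouts. The Lats2 groups overlapped, and its log2 change of -0.03 (95% interval -0.34 to 0.28, adjusted p = 0.868) did not pass, so the Lats2 RNA level does not check the labels. The sources used here do not give which exons the floxed alleles remove. The epithelial markers Vil1 (25947 to 28870 normalized counts) and Cdx2 (3876 to 4747) were abundant in all 4 libraries, and their log2 changes of 0.06 and -0.05 did not pass the test. "Rose" and "fell" below mean an adjusted p under 0.05 by limma, adjusted over all 16415 tested genes. Among all 13 listed epithelial markers, 3 rose (Krt8, Krt18, Krt20) and 4 fell (Fabp1, Fabp2, Cdx1, Lct).

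The S100 genes split by member in the Lats1/2 KO samples. S100a11, S100a6 and S100a10 rose, S100b, S100g and S100a1 fell, S100a13, S100a16 and S100a8 did not pass, and S100a4 was too low to test. Thus 6 of 9 tested members were called, where 27.5% of all tested genes were. Separately, 3 rose and 3 fell, where 15.2% and 12.3% of all tested genes did. The control and knockout values did not overlap for 7 of the 9, against 68.3% of all tested genes. The members were chosen with earlier results of these data known. S100a5, S100a9 and S100a14, tested but not among the 10, did not pass (adjusted p = 0.211, 0.296 and 0.443). The median log2 change was -0.42 over these 9 members and -0.0015 over all tested genes. The members' median is the value of S100a16, whose knockout libraries lay on either side of both controls. The summed normalized counts of the 10 members were 23872 and 24571 among controls, against 24033 (replicate 1) and 27858 (replicate 2) in the knockouts. In bulk tissue, fewer cells of a type and less RNA per cell cannot be told apart.

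**Figure D1:**
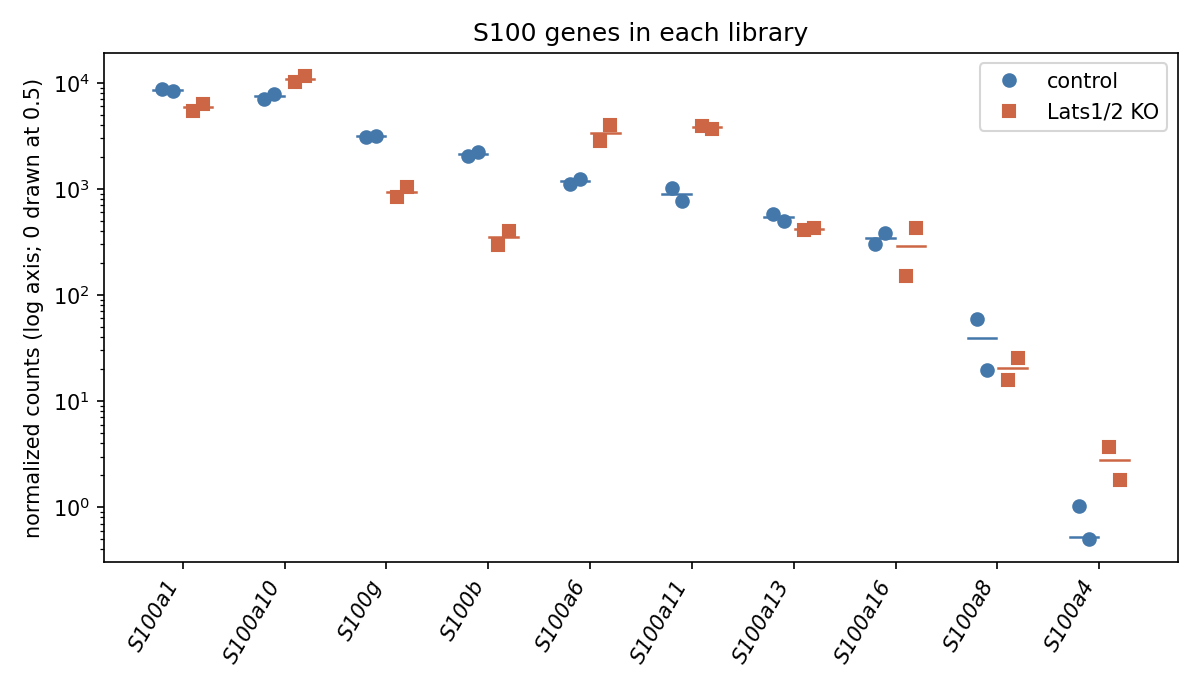
Normalized counts (log axis) of the 10 S100 genes in each library, ordered by control mean. Circles are control and squares Lats1/2 KO libraries, short bars are group means (n = 2), and a count of 0 is drawn at 0.5. S100a11 and S100a6 lie above the controls, S100g and S100b lie below them, and the S100a16 squares stand at 151 and 430.1.

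The order of the genes by level also differed between the groups when levels were set per kilobase of annotated exon. In the controls S100a1 led with 12281 normalized counts per kilobase. S100g (6538) and S100a10 (6131) followed, and their library ranges overlapped. S100a11 (1747) and S100b (1440), whose ranges also overlapped, came next, and then S100a6 (861) and S100a13 (755), which overlapped as well. S100a16 (213), S100a8 (56.5) and S100a4 (0.886) were lowest. In the Lats1/2 KO libraries S100a10 (8939) and S100a1 (8514) were first with overlapping ranges, followed by S100a11 (7418). S100a6 (2487) and S100g (1943) came next with overlapping ranges, and then S100a13 (582). The ranges of S100b (236) and S100a16 (180) overlapped as well, and S100a8 (29.6) and S100a4 (4.72) were lowest. S100a11 therefore made up 5.82% of the members' summed level per kilobase in the controls and 24.5% in the knockouts, and S100g 21.8% and 6.41%. The exon lengths are those of GENCODE M21 and may differ from the annotation behind the counts.

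**Figure D2:**
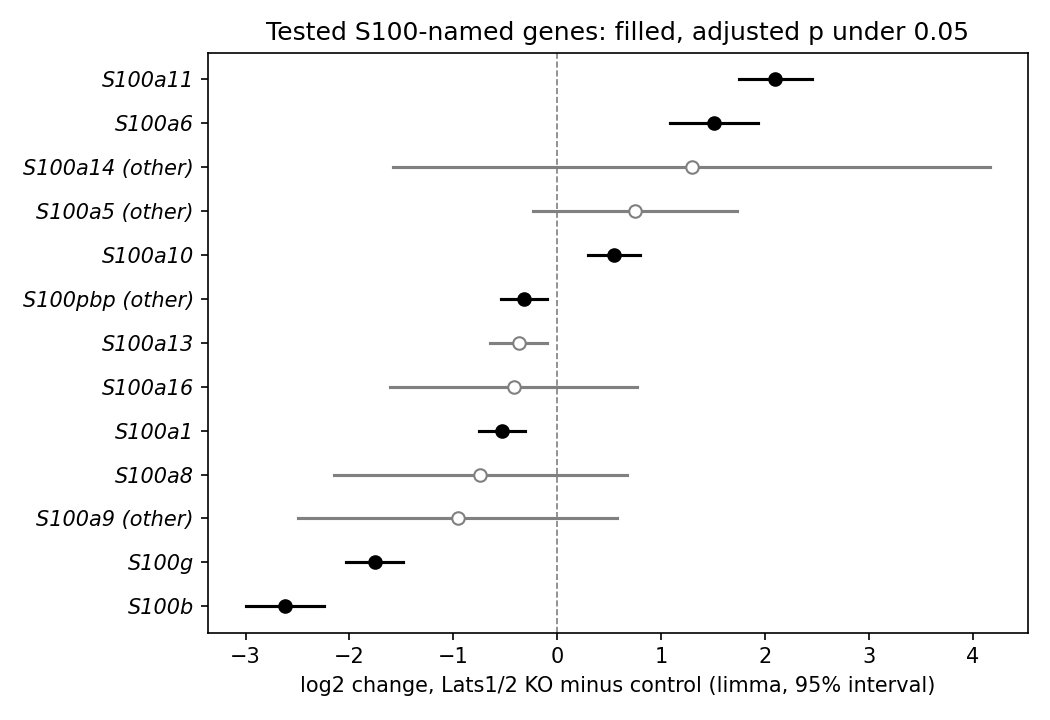
Log2 change between Lats1/2 KO and control (limma, points) with its 95% interval (lines) for the 13 tested genes whose name begins with S100. Filled points have an adjusted p under 0.05, and "other" marks rows outside the 10 genes described. The intervals of S100a14, S100a9, S100a8 and S100a16 span 0 and are the widest.

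S100A11 (calgizzarin) binds annexin A1 and takes part in membrane repair and growth control of epithelial cells. S100a11 (ENSMUSG00000027907, chromosome 3, 93520488 to 93526287, plus strand of GRCm38) had normalized counts of 1019.6 and 766 in the controls and 3916 and 3665 in the knockouts. Both knockout libraries stood far above both controls. The log2 change was 2.10 ± 0.14 (SE), a 4.28-fold rise with an adjusted p of 0.00095, the largest rise among the members. S100A6 (calcyclin) is a partner of annexins and of the calcyclin-binding protein and is abundant in proliferating cells. S100a6 (ENSMUSG00000001025, chromosome 3, 90612882 to 90624181, plus strand) was 1113 and 1240.1 in the controls and 2809.9 and 3989 in the knockouts. The groups did not overlap, and the knockout libraries differed more from each other than the controls did. S100a6 rose 2.85-fold (log2 change 1.51 ± 0.17 SE, adjusted p = 0.00348).

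S100A10 (p11) differs from its relatives in that the protein is fixed in the open form without calcium, and it pairs with annexin A2 at the plasma membrane. S100a10 (ENSMUSG00000041959, chromosome 3, 93555080 to 93564643, plus strand) was 6967 and 7893 normalized counts in the controls and 10114.5 and 11553 in the knockouts. The groups did not overlap. S100a10 rose 1.46-fold (log2 change 0.54 ± 0.10 SE, adjusted p = 0.0148). It no longer passed without Lats1/2 KO replicate 2 (log2 change 0.45, adjusted p = 0.0866, with a range over the 12 alternatives of 5.29e-05 to 0.0866).

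The promoter of S100a11 is shown because this gene had the largest rise and its window holds the AP-1 motif, which AP-1 factors bind and which often lies near TEAD sites in YAP-regulated regions. The window covers 250 bases before to 50 after the annotated start, from RefSeq on GRCm38.p6 (chr3:93520246-93520545, plus strand), and capitals mark TGANTCA.
S100a11: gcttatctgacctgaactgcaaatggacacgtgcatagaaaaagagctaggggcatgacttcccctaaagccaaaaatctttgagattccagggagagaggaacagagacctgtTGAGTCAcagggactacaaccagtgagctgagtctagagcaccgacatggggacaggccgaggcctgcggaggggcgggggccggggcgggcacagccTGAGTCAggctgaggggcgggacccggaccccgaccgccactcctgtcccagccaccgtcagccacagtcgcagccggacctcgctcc
Both matches read TGAGTCA and begin at positions -136 and -38 from the start. TGANTCA was searched on both strands and was found in 7.81% of the 32851 RefSeq promoter windows, and at 2 or more places in 0.46%. RefSeq windows were at hand for 9 of the 10 members, 10 windows in all, and S100a16 has 2 of these. AP-1 motifs lay in 2 of the 10, those of S100a11 and the downstream window of S100a16 (at -192). The TEAD motif GGAATG, searched on both strands, lay in 0 of the 10 and in 14.7% of all windows. Because the S100a11 window was shown for its matches, these shares are description only. The part of either motif in the S100a11 rise was not tested.

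Of the listed annexins and other genes that S100 proteins act on, most rose. In a list of annexins, AHNAK, S100 receptors and plasminogen system genes, 13 genes were tested. Of these 8 rose and 1 fell while 4 did not pass, and the median log2 change was 0.62. Over all tested genes, 15.2% rose and 12.3% fell, which is also the comparison for the lists below. This list of partners was made with earlier results of these data known. The count that rose was 8 without each library in turn. The 1 fall was Anxa6 (named after its value was seen, log2 change -0.30), and 0 fell without control replicate 1 or without either Lats1/2 KO library. Anxa2, the partner of S100A10, was 16653 and 16859.8 normalized counts in the controls and 26421 and 27195 in the knockouts, a 1.60-fold rise (log2 change 0.68 ± 0.07 SE). Anxa1, the partner of S100A11, rose 6.53-fold, from 454 and 502 to 2681 and 3642. Ahnak, a giant scaffold protein that S100A10 and annexin A2 bind, rose 4.22-fold, from 2548 and 2904 to 11542 and 11404. Plaur, the urokinase receptor, rose 5.97-fold, from 64.2 and 96.0 to 458 and 489.8. Plg, which encodes plasminogen, was 9.32 and 11.4 in the controls and 0.925 and 2.71 in the knockouts and was not tested. Bsg (basigin, named after its value was seen) rose 1.66-fold. Ager, which encodes RAGE, and Tlr4 had log2 changes of -0.94 and -0.14 and did not pass. Plau and Cd36 had log2 changes of -0.35 and -0.23 and did not pass either. The other genes that rose were Anxa11, Plat and Plgrkt, also named after their values were seen.

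The ratio of S100a10 to Anxa2 did not separate the groups. The log2 of this ratio was -1.26 and -1.09 among controls and -1.39 and -1.24 in the knockouts. The groups overlapped. The difference of means was -0.13, with control and knockout SDs of 0.11 each (n = 2), and the two-sided exact permutation p was 0.667, where the smallest this design can give is 0.333. The corresponding log2 ratio of S100a11 to Anxa1 was 1.17 and 0.61 in the controls and 0.55 and 0.0089 in the knockouts. Both knockout values lay below both controls, with a difference of means of -0.61 and a two-sided exact permutation p of 0.333, the smallest this design can give.

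**Figure D3:**
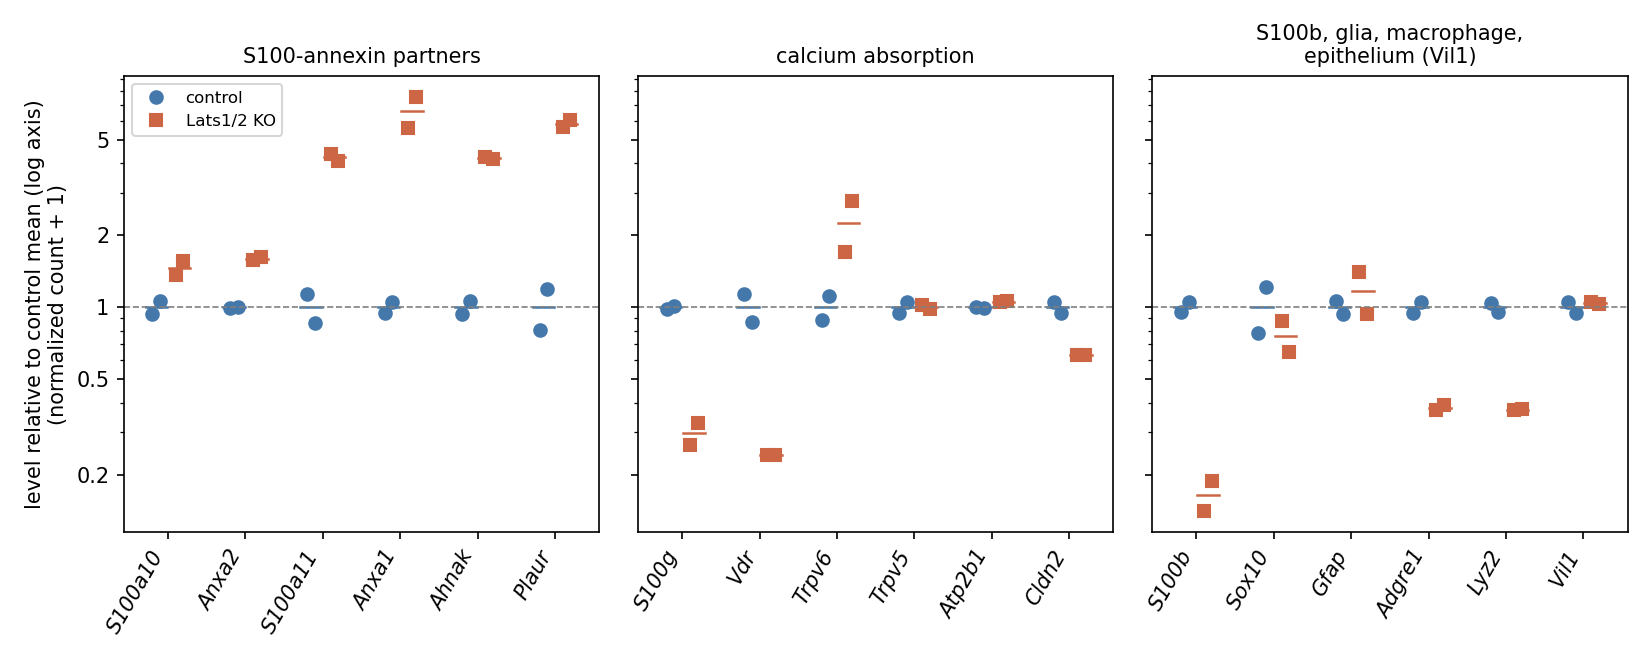
Level of each gene relative to its control mean, as normalized count + 1 (log axis), for S100-annexin partners, calcium absorption genes, and S100b with glial (Sox10, Gfap), macrophage (Adgre1, Lyz2) and epithelial (Vil1) markers. Circles are control and squares Lats1/2 KO libraries, and bars are means (n = 2). S100g lies low with Vdr while Trpv6 lies high. S100b lies far below its control mean in both knockouts, and Sox10 and Gfap are 2 of the 9 listed glial genes.

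S100g encodes calbindin-D9k, the cytosolic calcium carrier of enterocytes, and is a target of the vitamin D receptor. S100g (ENSMUSG00000040808, chromosome X, 162961992 to 162964599, minus strand) was 3097 and 3179.7 normalized counts in the controls and 835 and 1031 in the knockouts. Both knockout libraries lay well below both controls. S100g fell 3.38-fold (log2 change -1.76 ± 0.11 SE, adjusted p = 0.000814). Its promoter is shown for this fall, with TATAAA in capitals (RefSeq, GRCm38.p6, chrX:162964550-162964849, minus strand).
S100g: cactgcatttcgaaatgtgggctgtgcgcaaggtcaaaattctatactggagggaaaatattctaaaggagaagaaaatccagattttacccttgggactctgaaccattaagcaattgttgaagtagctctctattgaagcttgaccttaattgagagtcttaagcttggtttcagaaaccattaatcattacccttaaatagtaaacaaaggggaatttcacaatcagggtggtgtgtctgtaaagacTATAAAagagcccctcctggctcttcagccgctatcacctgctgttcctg
TATAAA, a motif added after the sequences were seen and searched on both strands, begins at position 1 of the annotated transcript here. It lay in 3 of the 10 member windows (S100g, S100a4 and S100a8) and in 13.6% of all windows.

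The other genes of intestinal calcium absorption divided. Among 12 tested genes 1 rose and 4 fell while 7 did not pass, and the median log2 change was -0.12. Vdr, the vitamin D receptor, fell 4.12-fold, from 788 and 602 normalized counts to 167 and 166. The part of Vdr in the S100g result was not tested. Trpv6, the apical calcium channel, was 79.7 and 101 in the controls and 155 and 252 in the knockouts, a 2.19-fold rise (adjusted p = 0.0323). Its call was lost without control replicate 1 (0.0889), without Lats1/2 KO replicate 2 (0.116) and with no filter (0.0729), within a range over the 12 alternatives of 0.00474 to 0.116. Cldn2, a claudin that forms a paracellular cation pore, fell 1.58-fold, from 27875 and 24989.6 to 16666 and 16675. Casr, the calcium-sensing receptor, fell from 10.4 and 12.6 to 1.85 and 3.61 (adjusted p = 0.0387), and its call was lost without any 1 of the 4 libraries (0.0577 to 0.138). Casr passed the filter of 10 normalized counts in at least 2 libraries only through the controls, so its place among the falls is limited by that. Cldn15 was the other fall. Atp2b1, the basolateral calcium pump, had a log2 change of 0.08 and Trpv5 of 0.0061, and neither passed. Of these 12 genes, 2 fell without Lats1/2 KO replicate 1 or 2, and 0 rose without control replicate 1 or Lats1/2 KO replicate 2. Epithelial markers beside S100g also divided, with 3 of 13 higher (Krt8, Krt18, Krt20), 4 lower (Fabp1, Fabp2, Cdx1, Lct) and a summed level of 716161 to 717707 in the controls and 605824 to 608353 in the knockouts. Fabp2 and Fabp1 made up most of the control sum, with means of 305781 and 136529, against 210031 and 84910 in the knockouts. Vil1, Epcam, Cdh1 and Cdx2 did not pass. Of these 13, 1 to 3 fell when a library was left out, 1 without Lats1/2 KO replicate 1. Their part in the S100g result was not tested.

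S100B is best known from astrocytes and other glia, where it binds p53 and microtubule proteins and, once secreted, RAGE. S100b (ENSMUSG00000033208, chromosome 10, 76253853 to 76261159, plus strand) had the largest change of the members. It was 2035 and 2240.2 normalized counts in the controls and 299 and 401 in the knockouts, with both knockout values far below. S100b fell 6.15-fold (log2 change -2.62 ± 0.15 SE, adjusted p = 0.000668). The promoter is shown for this gene too. None of the 3 motifs searched lay in it, so no base is in capitals (RefSeq, GRCm38.p6, chr10:76253586-76253885, plus strand).
S100b: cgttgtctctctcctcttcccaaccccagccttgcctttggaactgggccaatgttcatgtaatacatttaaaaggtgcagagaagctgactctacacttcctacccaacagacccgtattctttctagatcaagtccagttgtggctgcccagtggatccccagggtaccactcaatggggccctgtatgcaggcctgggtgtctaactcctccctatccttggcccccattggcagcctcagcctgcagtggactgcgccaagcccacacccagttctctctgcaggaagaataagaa

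Of 7 tested glial genes, 0 rose, 1 fell (Ednrb, named after its value was seen, and 0 fell without either Lats1/2 KO library) and 6 did not pass, and their summed level was 11991 to 12858 normalized counts in the controls and 11699 to 12526 in the knockouts, most of it from Erbb3, which epithelium also expresses. Sox10, the transcription factor of the glial lineage, was 37.3 and 58.3 normalized counts in the controls and 41.6 and 30.7 in the knockouts. The groups overlapped, and the log2 change of -0.37 did not pass. The part of glia in the S100b result was not tested. Macrophage markers were lower beside it, 6 of 10 tested, with summed levels of 16708 to 16948 in the controls and 9434 to 12271 in the knockouts. Lyz2 fell 2.67-fold and Adgre1 2.62-fold, both picked with their values in view. Fibroblast markers fell in 3 of 8 (summed 21817 to 24424 against 17786 to 19546). The fibroblast count was 0 without Lats1/2 KO replicate 2 and 1 without replicate 1. The part of macrophages and fibroblasts in the S100 results was not tested.

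S100a1 and S100a13 lie head to head on chromosome 3 and both were lower, though only S100a1 passed. S100A1 regulates calcium handling in muscle through the ryanodine receptor and the sarcoplasmic calcium pump. S100a1 (ENSMUSG00000044080, 90511034 to 90514392, minus strand) was 8695 and 8352 normalized counts in the controls and 5480.05 and 6338 in the knockouts, without overlap. It fell 1.45-fold (log2 change -0.53 ± 0.09 SE, adjusted p = 0.0111). Without Lats1/2 KO replicate 1 it no longer passed (log2 change -0.43, adjusted p = 0.0639, with a range over the 12 alternatives of 1.22e-05 to 0.0639). S100A13 takes part in the non-classical release of FGF1 and interleukin-1 alpha. S100a13 (ENSMUSG00000042312, 90514435 to 90524581, plus strand) was 583 and 497 in the controls and 408 and 424 in the knockouts, without overlap (log2 change -0.37 ± 0.11 SE, 95% interval -0.65 to -0.097, adjusted p = 0.0577). It passed without control replicate 2 (-0.49, adjusted p = 0.0339, range 0.0339 to 0.215).

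The S100a1 and S100a13 genes are 42 bases apart, and their promoter windows share 204 bases. The S100a13 window is shown for that reason, with the bases that also belong to the S100a1 window in capitals (RefSeq, GRCm38.p6, chr3:90514185-90514484, plus strand).
S100a13: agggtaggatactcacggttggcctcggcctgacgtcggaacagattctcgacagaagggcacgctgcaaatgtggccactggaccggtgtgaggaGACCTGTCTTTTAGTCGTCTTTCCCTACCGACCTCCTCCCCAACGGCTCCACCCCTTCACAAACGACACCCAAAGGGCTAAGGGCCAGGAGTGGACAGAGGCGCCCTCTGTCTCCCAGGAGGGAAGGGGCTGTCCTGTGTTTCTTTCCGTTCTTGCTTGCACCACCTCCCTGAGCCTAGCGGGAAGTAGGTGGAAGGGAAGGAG
This window and the S100a1 window held 14 and 11 CG dinucleotides, and the S100a11 window 15. The median over all windows was 7, and the S100b and S100g windows held 3 each.

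Smooth muscle markers, considered because S100a1 is a muscle gene elsewhere, rose in 0 and fell in 0 of 8 tested genes, although 2 fell without Lats1/2 KO replicate 1. Their summed level was 39500.2 and 41579.7 normalized counts in the controls and 41315 (replicate 1) and 30648 (replicate 2) in the knockouts. The part of smooth muscle in the S100a1 result was not tested.

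S100A16 is a broadly expressed member of the family. S100a16 (ENSMUSG00000074457, chromosome 3, 90537254 to 90543151, plus strand) was 303 and 384 normalized counts in the controls, 151 in Lats1/2 KO replicate 1 and 430.1 in replicate 2. The knockout libraries lay on either side of both controls. The log2 change of -0.42 ± 0.47 (SE) had a wide 95% interval (-1.61 to 0.77) with adjusted p = 0.549. It became -1.17 without Lats1/2 KO replicate 2 (adjusted p = 0.0344) and 0.33 without replicate 1 (0.309), within a range of 0.0344 to 0.873. S100a14, the neighbouring gene and not among the 10, was 26.9, 29.7 and 18.5 in the controls and Lats1/2 KO replicate 1 and 264 in replicate 2.

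S100A8 forms calprotectin with S100A9 in neutrophils. S100a8 (ENSMUSG00000056054, chromosome 3, 90668978 to 90670035, plus strand) was 59.0 and 19.4 normalized counts in the controls and 15.7 and 25.3 in the knockouts. Control replicate 1 stood above the other libraries, which overlapped. The log2 change was -0.74 ± 0.56 (SE, adjusted p = 0.375, 95% interval -2.15 to 0.67), and 0.04 without control replicate 1. S100a9 followed the same order of libraries, with 81.8 and 22.9 in the controls and 17.6 and 27.1 in the knockouts (log2 change -0.96, adjusted p = 0.296). Its adjusted p was 0.0284 without control replicate 2, within a range of 0.0284 to 0.933. Neutrophil markers were few. Of 12 genes 4 could be tested, 2 fell (Ngp and Csf3r) and 0 rose, and each fall was called in 1 of the 4 fits that left out a library (adjusted p over the 12 alternatives 0.00541 to 0.0842 for Ngp and 0.0201 to 0.0934 for Csf3r). The summed level of the 12 was 634 to 804 in the controls and 364 to 483 in the knockouts. Most of it came from Mmp9, at 518 and 377 in the controls and 320 and 206 in the knockouts, which did not pass. Mpo, the granule peroxidase, was at 0 in 3 libraries and 1.14 in the other, and Camp was at most 4.14. Of the listed genes too low to test, Cxcr2, Retnlg and Ly6g had higher means in the knockouts. Camp, Elane, Mpo, Prtn3 and Mmp8 had lower ones. The part of neutrophils in the S100a8 values was not tested.

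S100A4 is a partner of myosin and is widely used as a marker of fibroblasts and macrophages. S100a4 (ENSMUSG00000001020, chromosome 3, 90603771 to 90606045, plus strand) had 1 and 0 reads in the controls and 4 and 2 in the knockouts and was not tested. Vim and Lyz2, markers of the same cell types, were 2106 to 3036 and 1269 to 3556 normalized counts. In GENCODE M21, 51.7% of the S100a4 exon bases are shared with the gene model Gm42674 on the same strand. Gm42674 was not analysed here, and the sources used here do not give how reads shared by gene models were counted. The S100a4 value is therefore uncertain.

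Of the 7 other rows named S100, 4 were tested. S100pbp, which encodes an S100P-binding protein outside the family, fell 1.25-fold at an adjusted p of 0.0499 and lost that call in 7 of 12 alternatives. S100a5 was 17.6 and 14.9 normalized counts in the controls and 38.9 and 19.9 in the knockouts and did not pass. S100a2, S100a3 and S100a7a stayed under 3 normalized counts in every library. Among 22 tested EF-hand proteins outside the family, 6 rose and 1 fell while 15 did not pass, and the median log2 change was 0.06. Calm2, a calmodulin gene, rose 1.73-fold, from 6247 and 6379.99 to 10836 and 10956. Efhd1, a mitochondrial EF-hand protein, rose 6.92-fold, from 10.4 and 10.3 to 67.5 and 88.6. Chp1 and Efhd2 rose 1.49-fold and 1.53-fold. The 1 fall, Sdf4 (named after its value was seen), was not called without control replicate 1 or without either Lats1/2 KO library.

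The 8 members on chromosome 3 lie within 3.05 megabases (90511034 to 93564643), in 2 groups that are separated by genes of the epidermal cornified envelope. S100a1 to S100a9 form the first group. S100a11 and S100a10, 28.8 kilobases apart, form the second and both rose. Within the first group, S100a1 fell and S100a6 rose. Between the outermost S100 genes, 36 other genes had a row and 15 were tested, of which 4 rose and 6 fell. Over all tested genes, 15.2% rose and 12.3% fell. Among the 6 that fell, 2210017I01Rik, Lce6a, Lce1a1 and Lce1b passed the filter for testing only through the controls, which raises the count of falls. Smcp, known for its role in sperm mitochondria, fell 4.37-fold, from 3073 and 3871 normalized counts to 662 and 941. Sprr2a3, a small proline-rich protein gene, rose 1.70-fold, from 3288 and 3012 to 5499 and 5182, and its near-identical copies Sprr2a1 and Sprr2a2 can share reads with it. Lce1a1, a late cornified envelope gene, fell from 45.5 and 65.1 to 3.70 and 4.52. Among large S100-fused and envelope genes, Tchh (trichohyalin) rose 2.01-fold and Ivl (involucrin) fell, from 76.6 and 319 to 11.1 and 13.6, while Tchhl1 and Lor did not pass. Neither Tchh nor Ivl was called without either Lats1/2 KO library (Ivl 0.0631 and 0.0732, Tchh 0.146 and 0.158, in ranges of 1.86e-08 to 0.0732 and 0.00373 to 0.158).

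**Figure D4:**
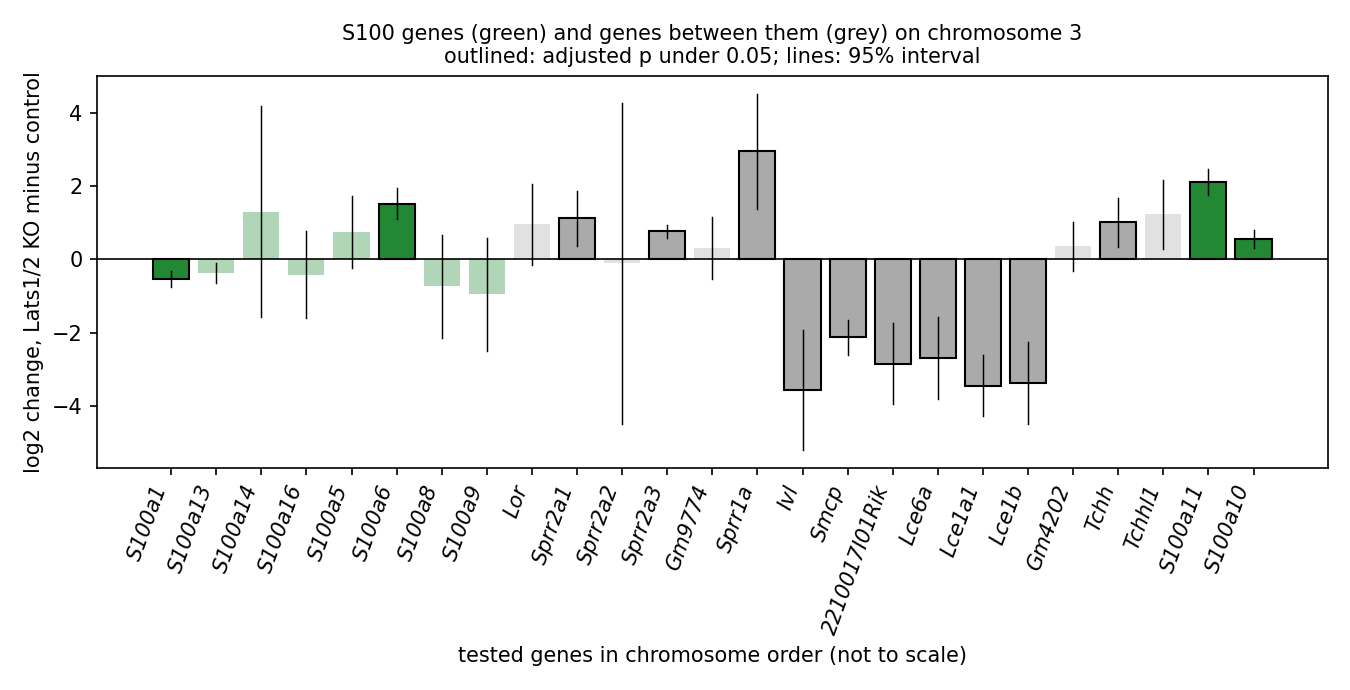
Log2 change between Lats1/2 KO and control (bars, with 95% intervals as lines) of the tested genes from S100a1 to S100a10 in chromosome order, not to scale. Green bars are S100 genes, grey bars the genes between them, and outlined bars have an adjusted p under 0.05. S100a11 and S100a10 rise at the right end, and 6 neighbouring tested genes from Ivl to Lce1b fall. Of these, 2210017I01Rik, Lce6a, Lce1a1 and Lce1b passed the filter for testing only through the controls.

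The authors' deposited table gave fold changes in the same direction as these for the 9 tested members. In the authors' deposited table the log2 fold change was 2.06 for S100a11, 1.49 for S100a6, 0.49 for S100a10, -0.48 for S100a1, -1.73 for S100g and -2.58 for S100b. For S100a13, S100a16 and S100a8 it was -0.26, -0.04 and -0.19, smaller in size than the -0.37, -0.42 and -0.74 found here.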

How the data were processed

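Total RNA of whole small intestine was sequenced, and per the submitters' processing notes STAR, featureCounts and DESeq2 were used with GRCm38. Their versions, strand setting and treatment of shared reads were not given in the sources used here. Each deposited per-library signal was a set of gene counts divided by 1 factor per library, and dividing each column by its smallest value gave whole reads for 100% of values, within 0.001 reads. The deposited table also held the authors' log2 fold change, linear fold change (ratio) and adjusted p-value. Column names gave each library's group only, so replicates were numbered in column order, as names.

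Genes with at least 10 normalized counts in at least 2 libraries (16415 of 29011) were tested with limma 3.58.1 (R 4.3.3, mean-variance trend) on log2(value + 1), with Benjamini-Hochberg adjustment and a threshold of 0.05. The fit was also run on simulated counts in which only genes with a mean above 50 normalized counts were changed. That run does not cover lower genes or replicates that differ as those of S100a16 did. Each fold change is relative to value + 1 (log2 scale), which understates changes of low genes. The spread had 2 residual and 3.53 prior degrees of freedom. Exon lengths and positions came from GENCODE M21, and promoter windows and their motif matches from RefSeq GRCm38.p6. edgeR 4.0.16 with TMM called 4568 genes and DESeq2 1.42.0 called 3877 on recovered reads, and limma 4508. Other alternatives were pseudocounts of 0.5 and 5, no filter, a filter at 50, rescaling by library totals or TMM, and leaving out each library.

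The members, lists and motifs were chosen with earlier results of these data known. Named were all S100 rows, up to 4 genes per other list with the smallest adjusted p, fixed markers, Lats1, and 3 genes between S100 genes. Other genes were named with their values in view. For 1 listed marker the values are not reported here. Of the lists, S100z, Cyp24a1, Pvalb, Ocm, Flg, Flg2, Hrnr and Crnn were not analysed here. Of the remaining marker lists, enteric neuron genes fell in 1 of 8 tested, endothelial genes in 1 of 6 and lymphocyte genes in 1 of 5, and 0 rose in each.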

Additional observations from a re-analysis of the deposited data

How the results depend on the processing

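Of 72 recomputations of the 6 called members, 70 kept direction and call, 2 lost the call (S100a1 and S100a10, as given above) and 0 turned direction. S100a6, S100a11, S100b and S100g kept both in each of their 12. Leaving out single libraries gave 1869 to 3754 called genes in place of 4508, with the lowest counts without Lats1/2 KO replicate 1 (1894) and replicate 2 (1869), 5 to 7 called members, 2 to 3 that rose and 2 to 4 that fell. Those fits turned the direction of S100a14 (-0.59 to 3.18), S100a16 (-1.17 to 0.33), S100a8 (-1.52 to 0.038), Vil1 (-0.011 to 0.13) and Cdx2 (-0.19 to 0.10), none of which passed in the full fit; the cause was not tested. S100a14 was called without Lats1/2 KO replicate 1 (adjusted p = 0.00803, range 0.00803 to 0.573). The difference in the S100a10 to Anxa2 log2 ratio was -0.22 to -0.05 over its 6 alternatives. Under the filter at 50, S100a8, S100a9, S100a5 and S100a14 were not tested. Where a fit leaves 1 library in a group, that library is assumed to vary like the other group. No paired analysis was possible because the column names carry no number that ties a library to a numbered sample. S100a4, S100a8 and the neutrophil markers had few reads, which limits their results. Why S100a4 had so few was not tested.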

Other observations

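A run of 6 consecutive tested genes between the S100 groups on chromosome 3, from Ivl to Lce1b (92570902 to 92656926, 86.0 kilobases of GRCm38), fell in the Lats1/2 KO samples, with log2 changes of -3.57 to -2.13. The run was picked out after its values were seen. It holds Ivl, Smcp, 2210017I01Rik, Lce6a, Lce1a1 and Lce1b. Of these, 2210017I01Rik, Lce6a, Lce1a1 and Lce1b passed the filter of 10 normalized counts in at least 2 libraries only through the controls. With knockout values that low, a gene entered the test only if its controls were higher, so the filter favoured falls in this run. Smcp carried most of the reads, and the late cornified envelope genes were low in the controls. Lce1b was 23.8 and 14.9 normalized counts in the controls and 0.925 and 0.904 in the knockouts, and Lce6a was 10.4 and 12.6 against 0.925 and 0.904. Sprr1a, the tested gene before the run, was 23.8 and 98.3 in the controls and 331 and 440.1 in the knockouts (log2 change 2.95, adjusted p = 0.0231).

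S100a14 was among 4 genes of the whole table that reached 100 normalized counts in Lats1/2 KO replicate 2 and lay at least 8-fold above every other library there, on value + 1. Trim12a was 0, 1.14 and 0 in the controls and Lats1/2 KO replicate 1 and 712 in replicate 2. Trim30d was 15.5, 60.6 and 27.8 against 1143, and Gm3716 was 4.14, 3.43 and 12.03 against 106. S100a14 itself was 8.62-fold above the next library.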
